A study of Mus musculus with 2 samples.

Results

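The genes described here are 8 drivers and brakes of pancreatic cancer: the RAS genes Nras and Hras, and the tumour suppressors Trp53, Cdkn2a, Cdkn2b, Rb1, Arid1a and Kdm6a. They were chosen by symbol, and all 8 were found among the 21983 entries of the deposited table. The RNA came from 14837, a C57BL/6 mouse line of pancreatic ductal adenocarcinoma (PDAC), kept for 48 h in conditioned medium, which is medium that other cells have grown in. The labels describe 2 libraries, 1 with medium from CAFs (cancer-associated fibroblasts, which make up much of the tumour stroma) and 1 with medium from 14837 cells themselves. Only the CAF-medium library could be tied to a value column, so every value below is a level in that library and no effect of the medium was measured. Both groups are the same line, and which driver alleles it carries is not given in the sources used here. Counts per gene symbol do not separate mutant from wild-type alleles.

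RAS proteins are small GTPases that pass growth signals from receptors to the kinase cascade ending in ERK. They are switched on by exchange factors, which load GTP, and off by GTPase-activating proteins. The products of Cdkn2a and Cdkn2b stop the D-cyclin kinases CDK4 and CDK6, which otherwise inactivate the RB protein and free E2F factors to drive DNA replication. A second product of Cdkn2a, ARF, holds back MDM2, the ligase that marks p53 for destruction. ARID1A is a DNA-binding subunit of the SWI/SNF chromatin remodeller, and KDM6A removes the repressive methyl mark on lysine 27 of histone H3 (H3K27). In pancreatic cancer the INK4/ARF locus and p53 are among the genes most often lost or mutated.

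The library held 21269197 counts. Levels are given as counts per 1000000 counts (CPM) and, to compare genes, as CPM per kilobase of merged exon, since long transcripts collect more counts. Among the 11525 genes with at least 10 counts and a known length, the median gene stood at 8.14 CPM per kilobase. The quartiles were 2.61 and 20.3, and by definition 50% of these genes stand above the median gene. Of all 21983 entries, 11569 had at least 10 counts. The counts of list members given below are to be read against both shares. List medians cover all listed genes. A gene listed at 0 enters them as 0 and counts as not above the median gene. With 1 library there was no replicate and no test, and the 95% intervals printed are exact Poisson or binomial intervals that cover counting error only. In bulk RNA, fewer cells carrying a transcript and less of it per cell cannot be told apart. The cells carried ductal markers, with 7 of 8 listed at 10 counts or more and Krt18 at 1819 CPM. However, Epcam had 2 counts, and Sox9 stood at 4.15 CPM per kilobase, below the median gene. Of 11 fibroblast markers 3 reached 10 counts, with a summed level of 37.0 CPM, of which Pdgfra made up 34.2, and Col1a2, Col3a1, Dcn and Lum were listed at 0. Of 6 macrophage markers 2 reached 10 counts, Cd14 with 339 and Cd68 with 121. Acinar markers reached 10 counts in 2 of 5, and endothelial markers in 0 of 4. The part of other cells in the levels below was not tested.

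The 8 genes spread widely. All of them had at least 10 counts, and together they held 0.105% of the library. Per kilobase, Cdkn2a was the highest and Trp53 the lowest, with a ratio of 53.3 between them. The genes above the median gene were Cdkn2a, Cdkn2b, Nras, Kdm6a, Arid1a and Hras, and those below it were Rb1 and Trp53. The median of the 8 was 19.6 CPM per kilobase, against 8.14 for all genes with at least 10 counts. The plot of levels under each gene length shows the order.

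**Figure D1:**
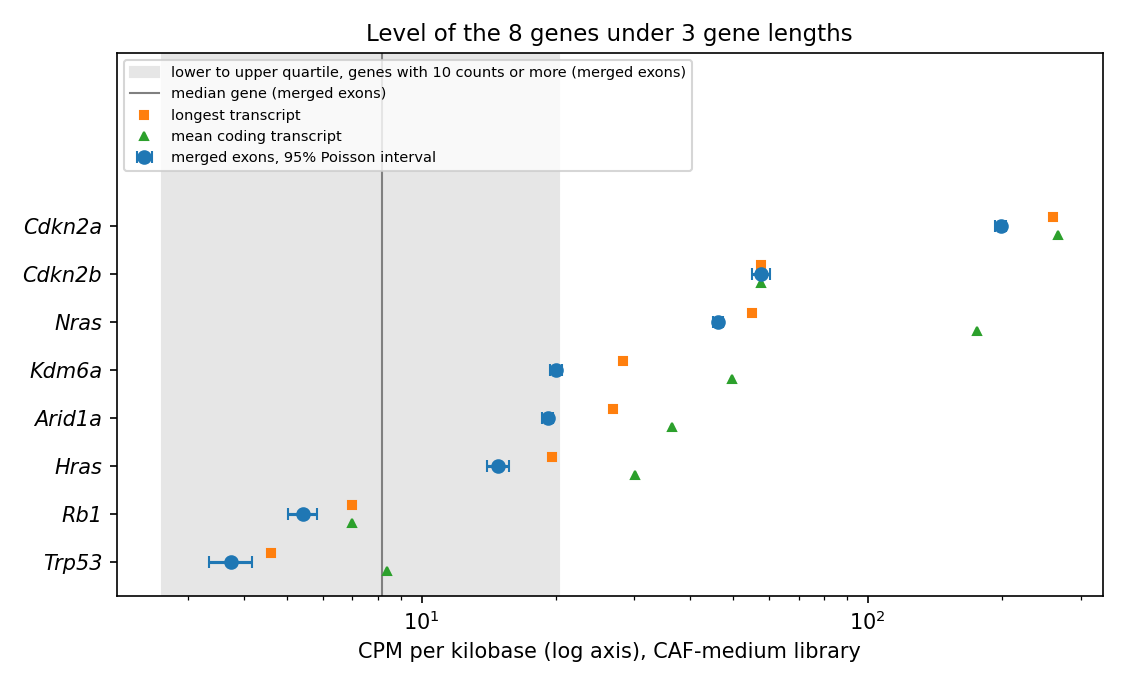
Level of each of the 8 genes in the CAF-medium library, in CPM per kilobase on a log axis. Circles use merged exons and carry 95% Poisson intervals, squares use the longest transcript and triangles the mean length of coding transcripts. The grey band from 2.61 to 20.3 runs from the lower to the upper quartile of genes with 10 counts or more. It rests on merged exons, so only the circles can be read against it. Cdkn2a stands highest under every length, and Rb1 and Trp53 are the lowest pair.

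The order of neighbours was resolved by counting error in most places. Cdkn2a stood 3.44 times above Cdkn2b (interval 3.26 to 3.64), and Cdkn2b 1.25 times above Nras (1.18 to 1.32). Nras stood 2.31 times above Kdm6a (2.21 to 2.41). These upper places hold 2 cell-cycle inhibitors and 1 growth-signal gene. Kdm6a and Arid1a were nearly level, at a ratio of 1.05 (1.0002 to 1.09). Arid1a stood 1.29 times above Hras (1.21 to 1.38) and Hras 2.74 times above Rb1 (2.5 to 3.02). Rb1 stood 1.45 times above Trp53 (1.27 to 1.66). With the mean length of coding transcripts as divisor, Nras passed Cdkn2b, at 175.9 against 57.7 CPM per kilobase, and Trp53 passed Rb1, at 8.35 against 6.998.

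Nras and Hras encode RAS proteins that differ mainly in their membrane-binding tails. Nras (chromosome 3, 103058285 to 103067914, plus strand, mm10) had 5243 counts, or 247 CPM (239.9 to 253) and 46.2 CPM per kilobase (45.0 to 47.5). That level is higher than in 90.1% of genes with at least 10 counts. Hras (chromosome 7, 141189105 to 141194005, minus strand) had 1180 counts, or 55.5 CPM (52.4 to 58.7) and 14.9 CPM per kilobase (14.0 to 15.7), above 66.9% of genes. Per kilobase Nras stood 3.11 times above Hras (2.92 to 3.32), and it made up 75.7% of their sum. The excess held under each length, from 2.81 times with the longest transcript to 5.84 times with the mean coding transcript. Some coding transcripts of Nras are short, down to 276 bases, which lowers its mean length.

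The coding parts of Nras and Hras have 567 bases each, of which 75.3% are identical position by position. No 64-base window of either longest transcript occurred in a transcript of another gene, so the counts of Nras and Hras rest on sequence that tells them apart at that length.

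Genes around RAS had counts at each listed step of its cycle. Of 11 relatives of the RAS subfamily, 11 had at least 10 counts and 8 exceeded the median gene, with a list median of 28.9 CPM per kilobase. Rap1b, which acts in cell adhesion, led at 62.8, followed by Rras at 44.0, the RAL gene Rala at 37.9 and Rheb, the activator of mTORC1, at 35.7. Against these, Nras at 46.2 stood below Rap1b alone. Rap2a and the RAS-like Mras were the lowest, at 2.82 and 3.08 CPM per kilobase.

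The genes listed around the GTP loading of RAS, which are exchange factors, adaptors and a phosphatase, were split. Widely used genes stood apart from factors known from neurons and blood cells. Of 11 listed, 5 exceeded the median gene. They were the adaptors Shc1 and Grb2 at 53.8 and 42.5 CPM per kilobase, the phosphatase Ptpn11 at 37.4, and the exchange factors Sos2 at 25.6 and Sos1 at 8.72. The remaining 6 belong to the RASGRF and RASGRP families, which are best known from brain and lymphocytes. Rasgrf1, Rasgrp1 and Rasgrp2 were listed at 0, and the highest of the other 3, Rasgrf2, stood at 0.758 CPM per kilobase. By counting error alone a 0 would allow up to 3 counts, or 0.141 CPM, as a one-sided limit. The ATP synthase gene Atp5a1 was also listed at 0, so neither absence nor a bound on the level is read from a 0 here.

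Among genes that switch RAS off, 4 of 13 exceeded the median gene. Spred2 and Spred1, which bring neurofibromin to the membrane, stood at 25.9 and 19.6 CPM per kilobase. Rasa3 stood at 16.1 and Nf1, which encodes neurofibromin, at 11.2. The list median was 5.67 CPM per kilobase over all 13 and 6.87 over the 11 with at least 10 counts. Without division by length 8 of 13 exceeded the median gene, so the place of this list depends on the scale. Nf1 itself had 3787 counts, or 178 CPM.

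Lipid processing anchors RAS to membranes. Of 10 genes listed for it, 10 had at least 10 counts, against 11569 of all 21983 entries. The list median was 17.5 CPM per kilobase. The protease Rce1, which trims the RAS tail, stood at 27.0, and the palmitoylation partner Golga7 at 21.6. Lypla2, which encodes a depalmitoylating enzyme, and the RAS carrier Pde6d each stood at 21.4. The farnesyltransferase subunits Fnta and Fntb stood at 20.7 and 5.18.

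Downstream of RAS, the effector genes spread widely. Of 20 effector genes 19 had at least 10 counts and 9 exceeded the median gene. Map2k1, the MEK1 gene, led at 82.0 CPM per kilobase (79.9 to 84.1), followed by the ERK1 gene Mapk3 at 54.5. Rin1, a RAS-binding regulator of endocytosis, stood at 31.4. The kinase genes Araf and Braf stood lower, at 13.4 and 4.44. Pik3ca, the catalytic subunit of PI3 kinase, stood at 19.3 CPM per kilobase, while the blood-cell forms Pik3cd and Pik3cg had 32 counts and 1 count.

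Cdkn2a was the highest of the 8 per kilobase, while Nras had more counts. It had 4954 counts, or 233 CPM (226 to 239.5) and 199 CPM per kilobase (193 to 204), above 98.7% of genes with at least 10 counts. The gene lies on chromosome 4, 89274471 to 89294653, on the minus strand. Cdkn2b lies 11645 bases away (89306299 to 89311039, minus strand). It had 1707 counts, or 80.3 CPM (76.5 to 84.2) and 57.7 CPM per kilobase (55.0 to 60.5), above 92.7% of genes. The ratio of 3.44 between them rose to 4.51 with the longest transcript and 4.62 with the mean coding transcript.

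The single count of Cdkn2a covers 2 proteins with different partners. GENCODE gives 2 transcripts, whose starts lie 12461 bases apart and whose first exons differ, while most of the rest is common. The distal start gives ARF and the proximal start gives INK4A, read in another frame. Of 1172 exonic bases, 575 (49.1%) lie in both transcripts, 320 only in the distal one and 277 only in the proximal one. The proximal first exon has 207 bases, so some bases of the proximal transcript alone lie beyond it. A count per gene symbol cannot be split between them. The first 30 coding bases of each are shown because the first exons differ:
ARF, distal start: atgggtcgcaggttcttggtcactgtgagg
INK4A, proximal start: atggagtccgctgcagacagactggccagg
INK4A and the Cdkn2b product, INK4B, are close relatives, yet the longest identical coding run of the 2 genes has 23 bases, from position 241 of Cdkn2b and 235 of the proximal Cdkn2a transcript:
Cdkn2b and Cdkn2a: cgggaaggcttcctggacacgct
No 64-base window of either gene's longest transcript, which for Cdkn2a is the distal one, occurred in a transcript of another gene.

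The starts of the locus also differ in base composition. The 100 bases directly upstream of each annotated first base are shown, with GGGCGG or its reverse complement, the GC box, in capitals where present:
Cdkn2a distal start, chr4:89294654-89294753, minus strand: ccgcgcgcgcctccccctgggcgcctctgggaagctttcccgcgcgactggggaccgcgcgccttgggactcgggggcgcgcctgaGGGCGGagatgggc
Cdkn2a proximal start, chr4:89282193-89282292, minus strand: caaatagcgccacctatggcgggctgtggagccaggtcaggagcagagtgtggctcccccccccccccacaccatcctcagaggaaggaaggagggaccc
Cdkn2b start, chr4:89311040-89311139, minus strand: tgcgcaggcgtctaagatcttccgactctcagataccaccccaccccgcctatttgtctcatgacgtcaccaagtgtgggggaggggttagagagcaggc
In the RefSeq windows of 300 bases (250 before and 50 after the RefSeq start, build GRCm38.p6), the distal start had 77.0% G and C and 45 CG pairs, and the proximal start 60.3% and 12. The Cdkn2b window had 57.7% and 18. The ratio of observed to expected CG pairs was 1.04 at the distal start, 0.442 at the proximal start and 0.722 at Cdkn2b, against a median of 0.384 over 32851 windows. These are features of the reference sequence, and no binding or methylation was measured.

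The genes flanking the locus were Mtap and Dmrta1. Mtap, an enzyme of methionine salvage whose last base lies 93389 bases from the annotated end of Cdkn2a, had 3907 counts, or 184 CPM and 56.9 CPM per kilobase (55.2 to 58.8). Dmrta1, a transcription factor gene on the other side of Cdkn2b, was listed at 0, which is not read as absence. The other INK4 genes were lower than Cdkn2a and Cdkn2b. Cdkn2d had 378 counts and stood at 11.3 CPM per kilobase, and Cdkn2c had 397 and stood at 6.95. Of the CIP/KIP inhibitors, which act on a wider range of cyclin kinases, Cdkn1a stood at 40.7, Cdkn1b at 22.6, and Cdkn1c was listed at 0.

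Polycomb proteins are known repressors of this locus. Of their 14 listed genes 8 stood above the median gene, near the 50% that do so by definition. All 14 had at least 10 counts, and the list median was 15.3 CPM per kilobase. Suz12 of the complex that writes the H3K27 methyl mark led at 43.0. Phc2 and Rnf2 of the complex that binds that mark stood at 29.2 and 25.02, and Bmi1, known to repress Cdkn2a in mouse cells, at 21.9. Of the windows of Bmi1, 13.6% also occurred in other genes. Ezh2, the methyltransferase itself, stood at 14.9 and Cbx7 at 1.62.

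**Figure D2:**
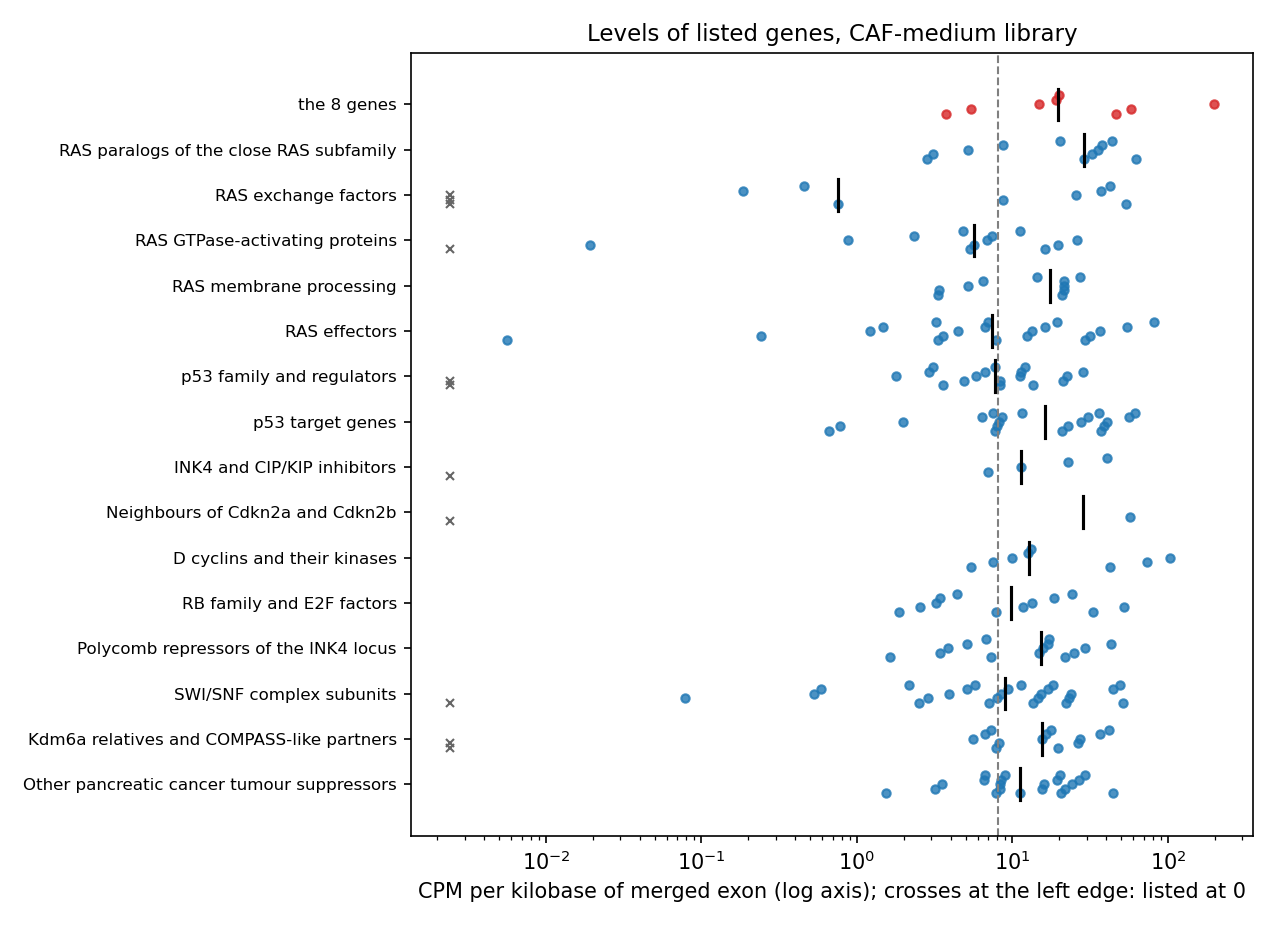
Levels in CPM per kilobase of merged exon (log axis) of the 8 genes, in red, and of the genes of 15 lists around them, in blue, in the CAF-medium library. Each point is a gene, black bars are list medians over all listed genes, crosses at the left edge are genes listed at 0, and the dashed line is the median gene at 8.14. Cdkn2a, at 199, lies to the right of every other gene plotted.

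Among the kinases and cyclins that INK4 proteins act on, Ccnd1 and Cdk4 were the highest. Ccnd1, which encodes cyclin D1, had 10318 counts and stood at 103 CPM per kilobase (101 to 105), although 23.4% of its exonic bases also belong to another gene. Cdk4 stood at 73.4, with 19.7% overlapped, and Ccnd2 at 42.6. Cdk6 and Ccnd3 were lower, at 12.6 and 9.94 CPM per kilobase. Per kilobase, Cdkn2a at 199 stood above each of these 5 genes, but without division by length Ccnd1, Ccnd2 and Cdk4, at 485, 400.4 and 238 CPM, stood above Cdkn2a at 233 CPM. Ccne2 stood at 13.1, and of the 8 cyclin and kinase genes 6 exceeded the median gene.

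Rb1, the gene of the RB protein itself, was low. It lies on chromosome 14, 73183673 to 73325822, on the minus strand. It had 693 counts, or 32.6 CPM (30.2 to 35.1) and 5.42 CPM per kilobase (5.02 to 5.84), above 39.4% of genes. Exons of Rcbtb2 and Lpar6, on the opposite strand, overlapped 14.9% of its exonic bases, and without a stated strand setting reads there cannot be told apart. Its relative Rbl1 (p107) had 1490 counts and stood 2.16 times higher per kilobase (1.97 to 2.36). Rbl2 (p130) had 703 counts, and Rb1 stood 1.24 times above it (1.11 to 1.38). The Rb1 to Rbl2 ratio was 1.04 with the longest transcript (0.938 to 1.16), so that order was not resolved, and 20.97% of the exonic bases of Rbl2 also belong to other genes.

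The E2F factors, which RB proteins bind, were uneven. Of 12 genes in the list of RB relatives and E2F factors, 12 had at least 10 counts and 6 exceeded the median gene, and the list median was 9.75 CPM per kilobase. E2f4, a repressor that works with p107 and p130, led at 52.3. The dimer partner Tfdp1 stood at 32.9, with 19.9% of its windows shared with another gene, and E2f5 at 24.3. The activator E2f1 stood at 18.5. The late repressors E2f8 and E2f7 were the lowest, at 2.54 and 1.87.

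Trp53 was the lowest of the 8 genes. It lies on chromosome 11, 69580359 to 69591873, on the plus strand. It had 321 counts, or 15.1 CPM (13.5 to 16.8) and 3.73 CPM per kilobase (3.33 to 4.16), above 31.3% of genes. A long non-coding transcript of Trp53 enlarges the exon length used here, and with the mean coding transcript the level was 8.35 CPM per kilobase. The median gene was not computed with that length. Of its windows 0.995% also occurred in the pseudogene Trp53-ps. The related Trp63 and Trp73 were listed at 0.

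Genes that control p53 and its target genes lay on both sides of the median gene. Of 19 p53 relatives and regulators 9 exceeded the median gene, and the list median was 7.71 CPM per kilobase. Over the 17 with at least 10 counts, the basis of the median gene, it was 8.30. The coactivator Ep300 led at 28.4, followed by Usp7, a protease that stabilises MDM2 and p53, at 22.4. Mdm2 stood at 21.1 and its partner Mdm4 at 13.5, with 9.98% of the windows of Mdm4 shared. Mdm2 is both the main ligase for p53 and one of its targets. Of 20 p53 target genes 13 exceeded the median gene, and the list median was 16.3 CPM per kilobase. Gadd45a and Sesn2, both also stress-response genes, stood at 61.7 and 56.2, and the cell-cycle inhibitor Cdkn1a at 40.7. Exons of a gene on the other strand overlapped 19.1% of the exonic bases of Gadd45a. Levels of targets do not show whether p53 was active.

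Arid1a had high counts in a long transcript. It lies on chromosome 4, 133679008 to 133756769, on the minus strand. It had 4678 counts, or 219.9 CPM (214 to 226) and 19.2 CPM per kilobase (18.6 to 19.7), above 73.4% of genes. Its paralog Arid1b, which takes the same place in the complex, had 1899 counts. Arid1a stood 2.7 times above Arid1b per kilobase (2.56 to 2.85), and between 2.46 times by counts and 3.64 times with the mean coding transcript.

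Most of the SWI/SNF complex had counts alongside Arid1a. Of 26 other subunit genes 24 had at least 10 counts. The median gene was exceeded by 14, near the 50% that do so by definition, and the list median was 8.95 CPM per kilobase. Over the 24 with at least 10 counts it was 10.4. Phf10, of the PBAF form, led at 51.2. The ATPase Smarca4 stood at 49.4 with 6797 counts, while the alternative ATPase Smarca2 had 161 counts and stood at 0.53. Dpf2 and Bcl7b stood at 44.3 and 23.7. Arid2, the ARID subunit of the PBAF form, stood at 16.9 CPM per kilobase, close to Arid1a. The neuronal Actl6b was listed at 0 and the muscle-associated Dpf3 had 7 counts.

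Kdm6a lies on the X chromosome, 18162575 to 18279936, on the plus strand. It had 3571 counts, or 168 CPM (162 to 173) and 20.0 CPM per kilobase (19.4 to 20.7), above 74.6% of genes. Its Y-linked relative Uty was listed at 0. Kdm6b, the other H3K27 demethylase, had 5428 counts and stood 1.83 times above Kdm6a per kilobase (1.76 to 1.91). That order turned with the mean length of coding transcripts, where Kdm6b stood at 0.772 times Kdm6a (0.74 to 0.805). Kdm6a has 10 annotated transcripts, of which 5 are coding and enter the mean. Some of these are short, down to 710 bases, which lowers its mean length.

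KDM6A works within the MLL3 and MLL4 complexes, which methylate histone H3 at enhancers, and the genes of these and related complexes had counts. Of 15 relatives and partners 13 had at least 10 counts and 9 exceeded the median gene, and the list median was 15.4 CPM per kilobase. Over the 13 with at least 10 counts it was 16.4. The core subunits Wdr5 and Rbbp5 stood at 41.6 and 27.2 and the methyltransferase Kmt2a at 26.3. The direct partners Kmt2d (MLL4) and Kmt2c (MLL3) stood at 15.4 and 7.81. Pagr1a was listed at 0, but 98.7% of its exonic bases are overlapped by exons of other genes, among them its copy Pagr1b.

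**Figure D3:**
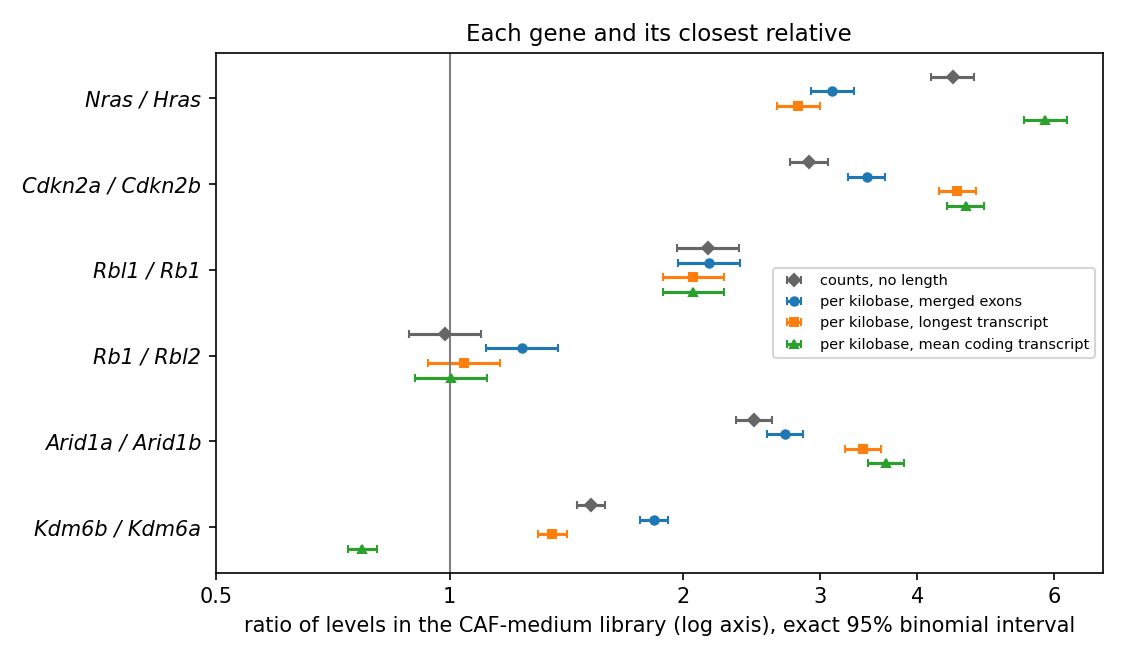
Ratio of the level of a gene to that of its relative in the CAF-medium library (log axis), from counts alone and per kilobase under 3 gene lengths, with exact 95% binomial intervals for counting error. Nras over Hras, Cdkn2a over Cdkn2b, Rbl1 over Rb1 and Arid1a over Arid1b lie above 1 on every scale. Rb1 over Rbl2 lies near 1, and Kdm6b over Kdm6a falls below 1 with the mean coding transcript.

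Other genes mutated or lost in pancreatic cancer had counts throughout. Of 21 listed, 21 had at least 10 counts and 15 exceeded the median gene, and the list median was 11.2 CPM per kilobase. Smad3, a signal carrier of TGF-beta, led at 44.3, followed by the large cadherin Fat1 at 29.4, the stress kinase Map2k4 at 26.7 and the deubiquitinase Usp9x at 24.2. Rb1 and Trp53, at 5.42 and 3.73, were lower than the median of this list, and Cdkn2a was higher than every member of it per kilobase. Without division by length, Fat1, Usp9x, Kmt2d and Smad3, at 461, 364, 308 and 245 CPM, stood above Cdkn2a. The list shares Nf1, Atm, Kmt2c and Kmt2d with the lists above.

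The promoter windows of the 8 genes were searched for 4 short motifs on both strands. RefSeq gave 9 windows for 7 of the genes. CACGTG, the E-box that MYC and related factors are known to bind, occurred in the windows of Nras, Trp53 and Kdm6a and in 7.15% of all 32851 windows. The 30 bases around each are shown with the E-box in capitals, because genes at unlike levels, 46.2, 3.73 and 20.0 CPM per kilobase, hold the same motif:
Nras, chr3:103058258-103058287, plus strand: tagtcgtcggccCACGTGgctggggcgggg
Trp53, chr11:69580357-69580386, plus strand: actttcccctccCACGTGctcaccctggct
Kdm6a, chrX:18162536-18162565, plus strand: gtcaacaaaggtCACGTGaggcgaggggct
The first base of the motif lies 15 bases before the RefSeq start of Nras, 27 before that of Kdm6a and 10 after that of Trp53. GGGCGG occurred in every window except that of Trp53, and in 35.7% of all windows. The downstream window of Arid1a had the most, with 7. CCAAT occurred in the windows of Hras and Trp53 and in the proximal window of Cdkn2a, and in 37.4% of all windows. TATAAA occurred in the window of Trp53 alone among the 9, and in 13.6% of all. A match is a run of letters in the reference and says nothing of binding in these cells.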

How the data were processed

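Per the labels' protocols, RNA of 14837 cells was taken up in Trizol and made into 1 Illumina library per medium. The values used are whole-number counts per gene symbol, deposited by the authors and not scaled. HISAT2 2.1.0, StringTie and mm10 are named, with no role, per the submitters' processing notes. Which counter, strand setting, rule for multiply matching reads and annotation were used is not given in the sources used here. A sample title tied the CAF column to its library, and 1 value column, whose name matched neither library, was not used, so the planned comparison of media was not made.

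CPM was computed over the column total and divided by the merged exon length of GENCODE M21 (mm10), to which 99.6% of symbols matched. Shared windows are 64-base windows, every 16 bases along the longest transcript, that occur in transcripts of other, non-overlapping genes. Intervals were checked on simulated Poisson counts only, which cannot show whether the real counts spread that way. Counts from 10 to 39 were multiples of 3 in 36.9% of entries, against 33.3% of whole numbers in that range, so intervals may be too narrow. Named were the 8 genes, their closest relatives, the flanking genes and up to 4 of the highest genes per list; other list genes were named after their values were seen, and some genes that meet the rule are not reported here. Members and lists were chosen with earlier results of these data known. Alternatives were 3 other CPM totals, 2 other lengths, other count minimums and no length. Scripts ran in Python 3.11.15 with pandas 2.3.3, scipy 1.17.1, matplotlib 3.10.9 and numpy 2.4.6.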

Additional observations from a re-analysis of the deposited data

How the results depend on the processing

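The number of the 8 genes above the median gene was 6 under every alternative tried, namely no length, the longest transcript (added after seeing the data), no count minimum and a minimum of 100 counts. The mean coding transcript was not tried for this count or for the list counts that follow. Of 60 counts of list members above the median gene under alternatives, 58 stayed within 1.5 times. The exceptions were the genes that switch RAS off, of which 4 became 8 without length and 7 with no minimum. Leaving the 100 highest entries out of the total raised every CPM 1.16 times and the median of the 8 from 124 to 143 CPM. Upper quartile scaling left levels as they were by construction, since 1 library has nothing to be scaled to. All 8 kept their place in the order with the longest transcript and 4 with the mean coding transcript. With the longest transcript and the mean coding transcript, in that order, Nras over Hras was 2.81 and 5.84, Cdkn2a over Cdkn2b 4.51 and 4.62, Rb1 over Rbl2 1.04 and 1.004, and Arid1a over Arid1b 3.41 and 3.64. Kdm6b over Kdm6a was 1.36 with the longest transcript and turned to 0.772 with the mean coding transcript, through the change of length alone. Between-sample normalisation and leaving out replicates could not be run with 1 library. No paired analysis was possible because a single library was used. No level was read from a single gene listed at 0, since Atp5a1 and Uqcrc1, genes of basic energy metabolism, were among them. In the list medians and the counts above the median gene such genes entered at 0, so these values may be too low.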

Other observations

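Rpl5 and Rpl11, ribosomal proteins that bind MDM2 and were listed as p53 regulators, had 257 and 442 counts, below the 806 counts of the median gene, and 48.4% and 37.0% of their windows occurred in other genes. Epcam, an epithelial adhesion gene, had 2 counts beside 7869 for Cdh1 and 38699 for Krt18, and none of its windows was shared. Fas, a p53 target and death receptor gene, had 29 counts, the lowest of the 20 targets. These genes were chosen after their values were seen.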
